A study of Homo sapiens with 4 samples.

Results

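The genes described here are the cyclins that drive cells out of the G1 phase and the inhibitors that hold their kinases back, followed across 4 arrays of MCF10A cells. The members were given as a list of gene symbols: CCND1, CCND2, CCND3, CCNE1, CCNE2, CDKN1A, CDKN1B, CDKN1C, CDKN2B and CDKN2C. Every Affymetrix probe set (a group of short probes for a transcript) annotated to exactly 1 of these symbols was taken, and the probe set with the highest mean intensity over the 4 arrays stood for its gene. Of the 10 listed genes, 9 had such a probe set, with 21 probe sets in all among 54613 on the array that are not controls. CDKN2C had none with that annotation and was not analysed here.

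MCF10A is an established, non-tumorigenic human mammary epithelial line that needs added growth factors. The cells carried a retrovirus expressing wild-type YAP (YAP-WT), a YAP with the S94A change (YAP-S94A), a YAP with the W1W2 change (YAP-W1W2), or the empty pQCXIH vector (vector). YAP is a transcriptional coactivator restrained by the Hippo pathway. S94A is a substitution in the region that binds the TEAD transcription factors, and W1W2 alters the WW domains, which bind proline-rich partners. All 4 groups grew in the same medium, with 5% horse serum, 20 ng/ml EGF, 0.5 μg/ml hydrocortisone, 10 μg/ml insulin and 100 ng/ml cholera toxin. Each YAP form was added to cells that keep their own YAP, and the labels do not give the time after infection or whether a line was 1 clone. Each group had 1 array. No spread between samples exists, so the differences below carry no test, no standard error and no replicate check.

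D-type cyclins (CCND1, CCND2, CCND3) bind the kinases CDK4 and CDK6 in response to growth factors and begin the phosphorylation of the retinoblastoma protein, which releases E2F transcription factors. E-type cyclins (CCNE1, CCNE2) are E2F targets that bind CDK2 and complete the passage into S phase. The CIP/KIP inhibitors p21 (CDKN1A), p27 (CDKN1B) and p57 (CDKN1C) bind cyclin and kinase together, whereas the INK4 inhibitors p15 (CDKN2B) and p18 (CDKN2C) bind CDK4 and CDK6 alone. In cultured mammary epithelium, growth factor withdrawal and contact between cells are known to lower D-type cyclins and to raise p27.

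The 3 YAP1 probe sets did not separate the YAP arrays from vector. The brightest had intensities of 3461.5 in YAP-WT cells, 4208.4 in YAP-S94A cells and 4657 in YAP-W1W2 cells, against 4085.5 in vector, and over all 3 probe sets the log2 folds over vector ran from −0.24 to 0.60. Whether they see the constructs is not known. The epithelial markers KRT5, KRT14, CDH1, EGFR and ITGA6 were all measured, with summed intensities of 97930.7, 89098.4 and 92389.8 in the YAP-WT, YAP-S94A and YAP-W1W2 cells, against 85846.9 in vector. Most of each sum was KRT5 and KRT14, and single markers moved apart. CDH1 read 5238.7, 11039 and 8295 in the YAP arrays, against 5828.9 in vector. EGFR read 13200.4, 6673 and 7258.8, against 9222 in vector. KRT17 and TP63 were not analysed here. Of 5 fibroblast markers 3 were measured, with COL1A1 at 409.9 to 1105.4 over the 4 arrays and highest in YAP-WT. The other measured ones differed from it. THY1 was lowest in YAP-WT, at 33.7, against 240.9 in vector, and COL1A2 was highest in YAP-W1W2, at 232.5. Of 3 endothelial markers 1 was measured, PECAM1, at 472.6 to 680.9, while 0 of 4 leukocyte markers were. The summed fibroblast intensities were 1359.1 in YAP-WT cells, 1028.4 in YAP-S94A cells and 1345.6 in YAP-W1W2 cells, against 915.4 in vector, and the part of such transcripts in the results was not tested. The 9 bacterial hybridization control probe sets gave log2 ratios to vector of −0.68 to 0.03 in YAP-WT, −1.16 to −0.11 in YAP-S94A and −1.50 to −0.37 in YAP-W1W2, and their part in the results was not tested either. Actin 3′ to 5′ probe ratios, a sign of RNA integrity, were 1.07, 1.01 and 0.964 in the same YAP arrays, against 1.16 in vector, and those of GAPDH were 1.02, 1.04 and 1.02, against 0.961 in vector.

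CCND1 and CCNE2 were at least 2-fold higher than vector in all 3 YAP arrays, CCNE1 in the 2 mutants and CCND3 in YAP-W1W2. The p57 gene CDKN1C was at least 2-fold lower in both mutants and the p27 gene CDKN1B in YAP-W1W2, CCND2 passed 2-fold in opposite directions in YAP-WT and YAP-S94A, and the p21 gene CDKN1A passed it in no array. A gene is called measured when its mean intensity was at least 113.6, the median over probe sets. Intensities under 72.9, the 40th percentile of all values, were raised to that floor before log2 was taken, and a change of 2-fold was counted. Of the 9 genes with a probe set 8 were measured, all above the floor on every array, and CDKN2B was not. In YAP-WT against vector, 2 of the 8 were at least 2-fold higher (CCND1, CCNE2), where 9.11% of all 12759 measured genes were, and 1 was lower (CCND2), where 4.95% of all genes were. In YAP-S94A against vector, 4 were higher (CCNE2, CCND1, CCNE1, CCND2) beside 10.3% of all genes, and 1 was lower (CDKN1C) beside 6.53%. In YAP-W1W2 against vector, 4 were higher (CCNE2, CCND1, CCNE1, CCND3) beside 11.4% of all genes, and 2 were lower (CDKN1C, CDKN1B) beside 8.4%. These comparisons share the vector array, so what they have in common can come from that array. Among all measured genes, vector was the lowest of the 4 arrays for 38.7% and the highest for 22.6%.

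By role, the median log2 fold over vector of the 3 D-type cyclins was 0.90 in YAP-WT cells, 1.25 in YAP-S94A cells and 1.15 in YAP-W1W2 cells. The same medians were 0.97, 1.83 and 1.78 for the 2 E-type cyclins, and −0.27, −0.84 and −1.03 for the 3 CIP/KIP inhibitors. With so few genes a median hides members that differ. CCND2 stood at −1.29 in YAP-WT and −0.29 in YAP-W1W2. The second CCNE2 probe set gave 2.03, 2.11 and 1.90, without the gap between YAP-WT and the mutants. Over all measured genes the median stood at 0.14, 0.14 and 0.10. The size of that shift depends on scaling, least so in YAP-W1W2. Among all genes past 2-fold, 64.8% were higher in YAP-WT than in vector, or 50.1% after each array was centred on its median. In YAP-S94A 61.2% were higher, or 47.3% after centring, and in YAP-W1W2 57.7%, or 54.8% after centring. Under quantile normalization the shares were 58%, 54.6% and 56.6% in the same order. The member calls against vector listed above all held under centring.

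**Figure D1:**
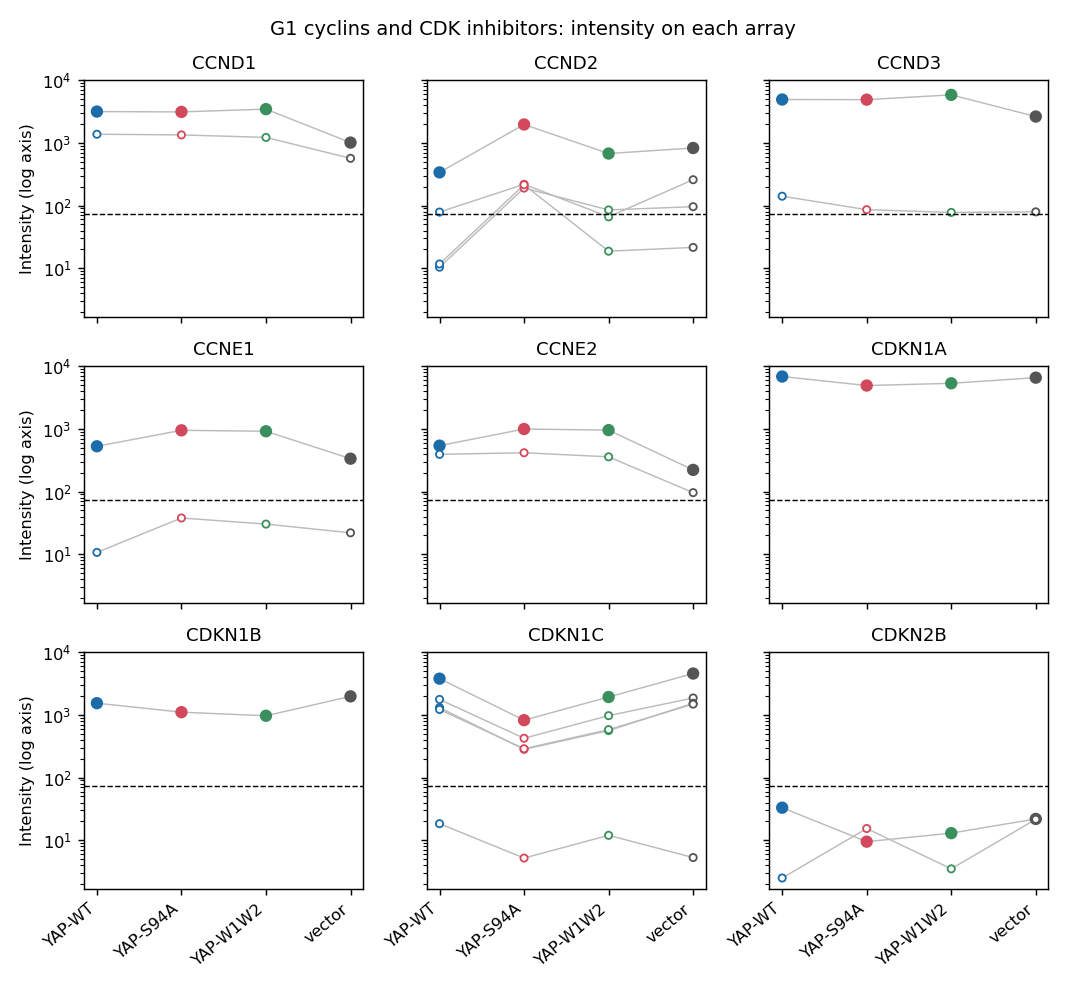
Intensity (log axis) of every probe set of the 9 genes on the YAP-WT, YAP-S94A, YAP-W1W2 and vector arrays; large filled points are the brightest probe set of a gene, small open points the others, grey lines join 1 probe set, and the dashed line is the floor of 72.9. CCND1, CCND3, CCNE1 and CCNE2 are lowest in vector by their brightest probe set, CCND2 peaks in YAP-S94A at 1967.7, CDKN1C is lowest there at 824.7, and both CDKN2B probe sets lie under the floor on all 4 arrays, where values have no order.

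CCND1 encodes cyclin D1, the D-type cyclin most tied to growth factor signalling in epithelium. Its brightest probe set had intensities of 3163.3 in YAP-WT cells, 3123.3 in YAP-S94A cells and 3456.6 in YAP-W1W2 cells, against 1012.1 in vector. The YAP arrays stood close together, and vector was far below them. CCND1 was therefore 3.13-fold, 3.09-fold and 3.42-fold higher than in vector, in that order. Only 2.92% of measured genes had as high a fold or higher in YAP-WT cells, 3.05% in YAP-S94A cells and 2.8% in YAP-W1W2 cells. The second probe set gave 1375, 1341.6 and 1224 in the YAP arrays, against 567.9 in vector, which is 2.42-fold, 2.36-fold and 2.16-fold higher. Between YAP forms neither CCND1 probe set differed by more than 1.12-fold.

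CCND3 encodes cyclin D3, which pairs with the same kinases. Its brightest probe set read 4925.7 in YAP-WT cells, 4900 in YAP-S94A cells and 5838.8 in YAP-W1W2 cells, against 2634.5 in vector. Again vector was the lowest array, with folds of 1.87, 1.86 and 2.22. The call in YAP-W1W2 is close to the 2-fold rule, and the log2 fold of 1.15 became 0.99 under quantile normalization. The other CCND3 probe set lay near the floor, at 141.1, 86 and 77.8 in the YAP arrays against 79.4 in vector. It stood apart from vector in YAP-WT alone (log2 fold 0.83), and in YAP-W1W2 its log2 fold was −0.03.

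CCND2, the gene of cyclin D2, was the member with the widest range, 5.81-fold between its lowest and highest array. The brightest probe set read 338.5 in YAP-WT cells, 1967.7 in YAP-S94A cells and 676.8 in YAP-W1W2 cells, against 829.3 in vector. YAP-S94A was well above the other arrays and YAP-WT well below them, with YAP-W1W2 a little under vector. The gene was thus 2.45-fold lower in YAP-WT, 2.37-fold higher in YAP-S94A and 1.23-fold lower in YAP-W1W2 than in vector. The other 3 probe sets were dim. The second brightest read 78.8, 218.6 and 66.1 in the YAP-WT, YAP-S94A and YAP-W1W2 cells, against 258.8 in vector, so by it YAP-S94A was 1.18-fold lower than vector, not higher. The third read 10.4, 190.3 and 85.2 in the YAP arrays against 96 in vector, and the fourth read 11.7, 214.6 and 18.7 against 21.5. By the last, YAP-S94A was at least 2.94-fold higher than vector, with every other array under the floor. All 4 CCND2 probe sets placed YAP-S94A above YAP-WT and above YAP-W1W2. They did not place it on the same side of vector.

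CCNE1 and CCNE2 encode cyclins E1 and E2, which activate CDK2 at the start of S phase. CCNE1 read 528.2 in YAP-WT cells, 949.8 in YAP-S94A cells and 917.9 in YAP-W1W2 cells, against 335.1 in vector. The 2 mutant arrays were highest, YAP-WT was between them and vector, and the folds over vector were 1.58, 2.83 and 2.74. A dimmer CCNE1 probe set lay under the floor on all 4 arrays and gave no fold. CCNE2 read 540.6, 995.9 and 956.6 in the YAP arrays, against 221.9 in vector. Its order was that of CCNE1, with folds over vector of 2.44, 4.49 and 4.31. Its second probe set did not show YAP-WT below the mutants: it read 393 in YAP-WT cells, 416.5 in YAP-S94A cells and 358.6 in YAP-W1W2 cells, against 96.2 in vector, or 4.09-fold, 4.33-fold and 3.73-fold higher. A fold of CCNE2 as high or higher was found for 5.43% of measured genes in YAP-WT cells, 1.07% in YAP-S94A cells and 1.5% in YAP-W1W2 cells. E-type cyclin transcripts are made around the G1 to S boundary, and in RNA from whole cultures more cells at that stage and more transcript in each cell cannot be told apart.

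CDKN1A encodes p21, the inhibitor that p53 induces. Its single probe set read 6856.6 in YAP-WT cells, 4922.1 in YAP-S94A cells and 5343.8 in YAP-W1W2 cells, against 6575.3 in vector. The whole range over 4 arrays was 1.39-fold, the narrowest of the measured members. The log2 fold over vector was 0.06 in YAP-WT cells, −0.42 in YAP-S94A cells and −0.30 in YAP-W1W2 cells, and the sign in YAP-WT turned under centring, to −0.10.

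CDKN1B encodes p27, an inhibitor of cyclin E with CDK2 that accumulates in resting cells. Its single probe set read 1539.7 in YAP-WT cells, 1107.2 in YAP-S94A cells and 969.2 in YAP-W1W2 cells, against 1978.3 in vector. Vector was the highest array and YAP-W1W2 the lowest. The transcript was 1.28-fold, 1.79-fold and 2.04-fold lower in the YAP arrays in that order, so YAP-W1W2 alone passed 2-fold, by little. A fold as low or lower was found for 18.5%, 8.75% and 7.98% of measured genes. p27 is controlled largely by protein breakdown, which these arrays do not measure.

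CDKN1C encodes p57, an inhibitor that is transcribed from the maternal allele and is linked to cell cycle exit and differentiation. Its brightest probe set read 3793 in YAP-WT cells, 824.7 in YAP-S94A cells and 1932.8 in YAP-W1W2 cells, against 4578.2 in vector. YAP-WT and vector were close, YAP-S94A was far below, and YAP-W1W2 lay between. CDKN1C was 1.21-fold lower in YAP-WT than in vector, 5.55-fold lower in YAP-S94A and 2.37-fold lower in YAP-W1W2. A fold as low or lower was reached by 22.4% of measured genes in YAP-WT cells, 0.564% in YAP-S94A cells and 5.65% in YAP-W1W2 cells. The next 3 probe sets carry the _x_at suffix, which marks probes that can also bind other transcripts, and they gave the same order. The brightest of them read 1767.6, 424.4 and 974.6 in the YAP arrays, against 1864.6 in vector. Over these 4 probe sets the log2 fold over vector ran from −0.28 to −0.08 in YAP-WT, from −2.47 to −2.14 in YAP-S94A and from −1.45 to −0.94 in YAP-W1W2. The fifth lay under the floor on every array. Markers of luminal mammary cells, 2 of 3 measured, had summed intensities of 7321.8, 1677.6 and 4908.6 in the YAP arrays, against 2861.7 in vector. Most of each sum was GATA3, which was lowest in YAP-S94A at 1458.2, whereas the other measured marker, ESR1, was highest there at 166.6, and their part in the CDKN1C values was not tested.

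CDKN2B, the gene of p15, was below the floor on all 4 arrays by both of its probe sets. The brighter read 33.1 in YAP-WT cells, 9.5 in YAP-S94A cells and 13 in YAP-W1W2 cells, against 21.9 in vector, and values this low have no order. MCF10A cells are known to lack the chromosomal segment that holds CDKN2A and CDKN2B. The neighbouring CDKN2A, which encodes p16 and ARF, read 191, 224.4 and 300.4 in the YAP arrays and 364.5 in vector by its brightest probe set, again one with the _x_at suffix. Its other probe sets read at most 100.6 on any array. The INK4 gene CDKN2D (p19) was dim, at 104.1, 107.2 and 219.3 in the YAP arrays and 158.5 in vector.

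**Figure D2:**
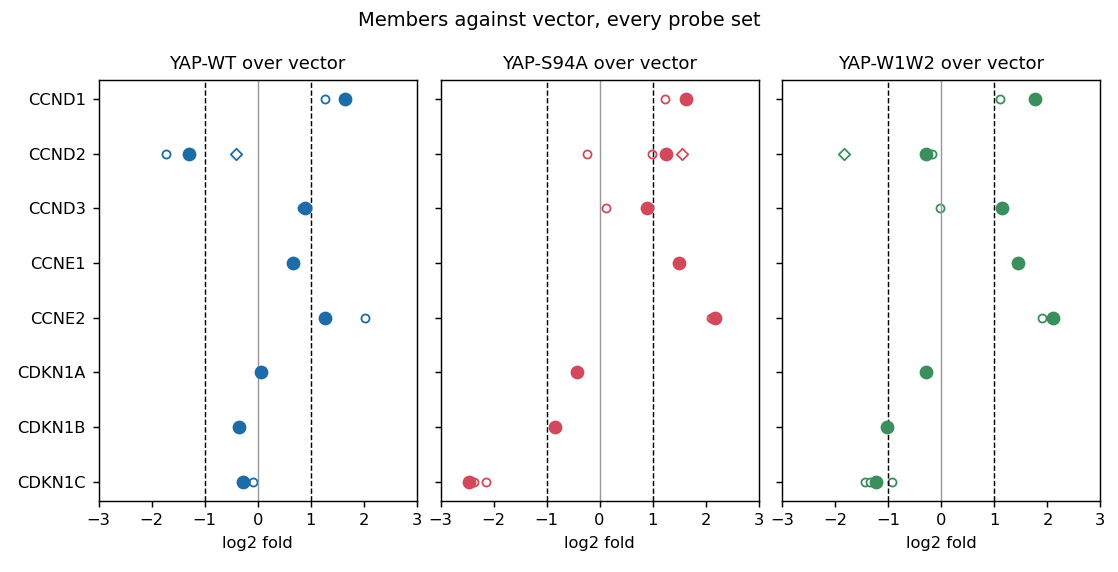
Log2 fold over vector of each member in the YAP-WT, YAP-S94A and YAP-W1W2 cells; large filled points are the brightest probe set, open circles the other probe sets, diamonds are bounds with 1 array under the floor, and dashed lines mark 2-fold. CDKN2B and probe sets under the floor on both arrays are not drawn; CDKN1C reaches −2.47 in YAP-S94A, CCNE2 2.17, and CCND2 lies at −1.29 in YAP-WT and at 1.25 in YAP-S94A.

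Promoter sequence was read for the members with a window in the RefSeq promoter table used here, since S94A alters the contact of YAP with TEAD factors. Windows of 250 bases before an annotated start were read from RefSeq on GRCh38.p14 and matched 6 of the 10 members, with 10 windows because CCND3 and CDKN2C have several starts. CCND1, CCND2, CCNE2 and CDKN1C had no window there. These are the members with the widest ranges over the arrays, and the matches below do not cover them. The letters GGAATG, bound by TEAD factors, or CATTCC on the other strand, stood in 4 of the 10 windows, against 11.9% of 35116 windows of all genes. They were found in 1 of the CCND3 windows, 2 of the CDKN2C windows and that of CDKN2B. CDKN2C was not analysed here and CDKN2B was under the floor on all 4 arrays, so CCND3 was the only measured member with a match. The brightest CCND3 probe set stood at log2 −0.01 in YAP-S94A over YAP-WT, and the part of these letters in its values was not tested. The E2F words TTTGGCGC, TTTCCCGC, TTTCGCGC and TTTGCCGC, searched on both strands, stood in 0 of the 10 windows and in 2.79% of all windows. These matches are descriptions of the letters only. The windows of CCND3 (chr6:41941809-41942058, minus strand), CCNE1 (chr19:29811741-29811990, plus strand) and CDKN1B (chr12:12717118-12717367, plus strand) are shown 5′ to 3′, since these members passed 2-fold against vector in 1 or 2 YAP arrays, and the CCND3 window is the one with a match. Capitals mark the TEAD letters, which lie 41 to 36 bases before the CCND3 start.
CCND3: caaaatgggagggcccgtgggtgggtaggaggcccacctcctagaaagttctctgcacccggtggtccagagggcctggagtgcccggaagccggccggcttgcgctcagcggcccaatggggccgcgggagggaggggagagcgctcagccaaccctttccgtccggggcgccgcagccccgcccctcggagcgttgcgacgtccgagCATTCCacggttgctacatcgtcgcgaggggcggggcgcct
CCNE1: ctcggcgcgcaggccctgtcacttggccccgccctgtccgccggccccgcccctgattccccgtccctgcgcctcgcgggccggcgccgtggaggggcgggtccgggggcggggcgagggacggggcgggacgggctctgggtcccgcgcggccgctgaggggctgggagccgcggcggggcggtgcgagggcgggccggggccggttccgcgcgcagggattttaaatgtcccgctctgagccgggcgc
CDKN1B: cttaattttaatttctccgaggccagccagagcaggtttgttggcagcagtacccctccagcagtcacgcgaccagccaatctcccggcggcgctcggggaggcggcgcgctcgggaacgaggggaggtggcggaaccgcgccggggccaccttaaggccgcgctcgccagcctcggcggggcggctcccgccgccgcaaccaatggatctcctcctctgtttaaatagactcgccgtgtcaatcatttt

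The comparisons between YAP forms leave the vector array out and ask which members differ with the TEAD-binding or the WW-domain change. In YAP-S94A against YAP-WT, 1 of the 8 measured members was at least 2-fold higher, CCND2, where 5.06% of all genes were, and 1 was lower, CDKN1C, where 6.27% were. CCND2 was 5.81-fold higher in YAP-S94A than in YAP-WT, and 0.274% of measured genes had as high a difference or higher. By its dimmer probe sets the same difference was 2.77-fold, at least 2.61-fold and at least 2.94-fold. CDKN1C was 4.6-fold lower in YAP-S94A, with the other 3 probe sets above the floor at 4.16-fold to 4.63-fold, and 0.886% of genes were as low or lower. CCND1 and CCND3 hardly differed (log2 −0.02 and −0.01), whereas CCNE1 was 1.8-fold and CCNE2 1.84-fold higher by their brightest probe sets. The second CCNE2 probe set gave 1.06-fold.

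In YAP-W1W2 against YAP-WT, 0 of the 8 members were at least 2-fold higher, beside 3.91% of all genes, and 0 were lower, beside 5.59%. CCND2 came to the edge of the rule, with intensities of 676.8 in YAP-W1W2 and 338.5 in YAP-WT, and passed it after centring (log2 1.13). Its second brightest probe set was under the floor in YAP-W1W2 and at 78.8 in YAP-WT. CDKN1C stood at −0.97 (log2) by its brightest probe set, and at −1.22, −1.07 and −0.86 by the _x_at probe sets. Among all genes past 2-fold in this comparison, 41.2% were higher in YAP-W1W2, or 57.4% after centring.

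In YAP-W1W2 against YAP-S94A, CDKN1C was 2.34-fold higher, beside 4.98% of all genes past 2-fold higher, and CCND2 2.91-fold lower, beside 4.45% lower. All 4 CDKN1C probe sets above the floor were higher in YAP-W1W2 (log2 0.99 to 1.23), and all 4 of CCND2 were lower (−1.58 to −1.16). The CCND2 values of −1.58 and −1.56 are bounds, with YAP-W1W2 under the floor. The E-type cyclins lay close together on these arrays, with log2 differences of −0.05 for CCNE1 and −0.06 for CCNE2, and both signs turned under centring and under quantile normalization. Of all genes past 2-fold, 52.8% were higher in YAP-W1W2, or 65% after centring. Over the 8 members the median log2 difference was −0.01 in YAP-S94A against YAP-WT, 0.19 in YAP-W1W2 against YAP-WT and 0.03 in YAP-W1W2 against YAP-S94A, beside 0.01, −0.04 and −0.07 over all measured genes.

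**Figure D3:**
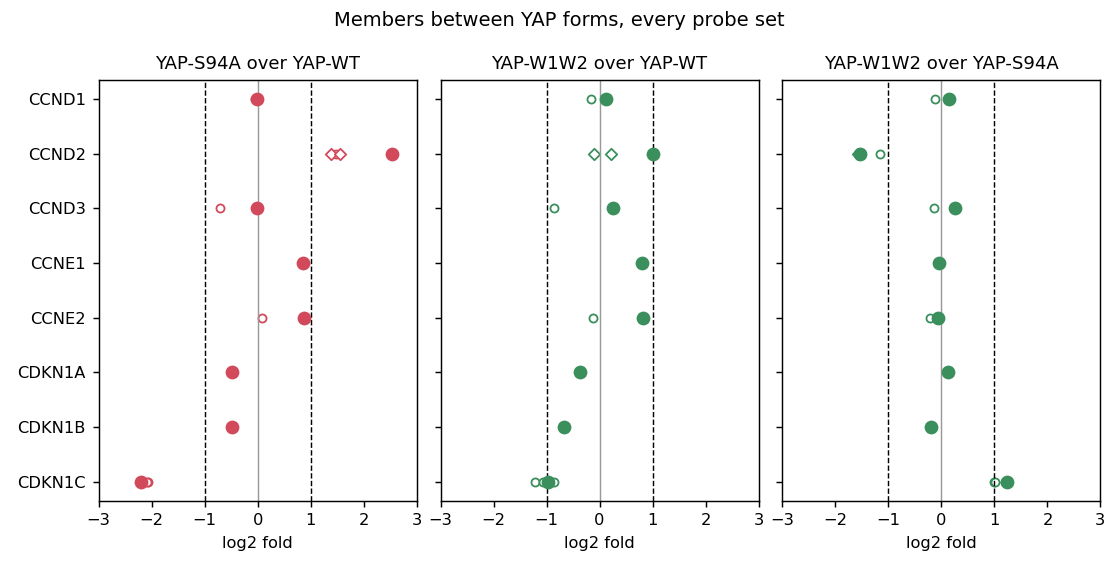
Log2 fold of each member in YAP-S94A over YAP-WT, YAP-W1W2 over YAP-WT and YAP-W1W2 over YAP-S94A, with points, diamonds and dashed lines as in the plot of folds over vector. CCND2 (2.54) and CDKN1C (−2.20) stand far from the other members in YAP-S94A over YAP-WT, and by their brightest probe sets the genes lie on opposite sides of 0 in each comparison drawn. The comparisons share their arrays, and the last follows from the others. In YAP-W1W2 over YAP-WT the second brightest CCND2 probe set lies at −0.11, a bound.

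The partners and regulators of these genes were taken as a list of 23, all of them measured. In YAP-WT against vector 6 were at least 2-fold higher and 1 lower, beside 9.11% and 4.95% of all measured genes. In YAP-S94A 7 were higher and 0 lower, beside 10.3% and 6.53%. In YAP-W1W2 6 were higher and 1 lower, beside 11.4% and 8.4%. The list's median log2 fold was 0.38, 0.51 and 0.26 in that order, beside 0.14, 0.14 and 0.10 over all measured genes. CDC25A, the phosphatase that removes inhibitory phosphate from CDK2, read 565.3 in YAP-WT cells, 568.5 in YAP-S94A cells and 531.1 in YAP-W1W2 cells, against 88.7 in vector, and was 5.99-fold to 6.41-fold higher. The vector value is near the floor. CCNA2, the S-phase cyclin, was 5.06-fold, 6.18-fold and 4.55-fold higher. CDKN3, a phosphatase of CDK2, was 4.02-fold, 3.12-fold and 3.11-fold higher.

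Among the kinases, CDK2 was 3.04-fold, 2.22-fold and 2.84-fold higher than in vector, and all 3 of its probe sets were higher in each YAP array. CDK6 was 2.77-fold, 2.39-fold and 3.59-fold higher on its brightest probe set, and the next 2 probe sets gave log2 folds of 0.64 to 1.27. CDK4, the other kinase of D-type cyclins, did not pass 2-fold, at log2 folds of 0.38, 0.68 and 0.22. The D-type cyclin partners thus differed in size, and CDK4 and CDK6 intensities themselves cannot be set against each other.

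Of the genes that govern p27 breakdown, SKP2, the substrate receptor of its ubiquitin ligase, measured on an _x_at probe set, read 6223.8 in YAP-WT cells, 2742.5 in YAP-S94A cells and 8483.2 in YAP-W1W2 cells, against 1316.2 in vector. It was 4.73-fold, 2.08-fold and 6.45-fold higher, and in YAP-S94A it was 2.27-fold lower than in YAP-WT. CKS1B, the SKP2 cofactor, was 2.43-fold higher in YAP-S94A, with log2 folds of 0.99 and 0.88 in YAP-WT and YAP-W1W2. FBXW7, the receptor through which cyclin E is degraded, was 2.04-fold lower in YAP-WT and 2.87-fold lower in YAP-W1W2 than in vector, and stood at a log2 fold of −0.97 in YAP-S94A. Of the 11 ubiquitin ligase genes on the list, few passed 2-fold against vector. In YAP-WT 1 was higher (9.11% of all genes) and 1 lower (4.95%). In YAP-S94A 2 were higher (10.3%) and 0 lower (6.53%), and in YAP-W1W2 1 was higher (11.4%) and 1 lower (8.4%). Their median log2 folds were 0.35, 0.18 and 0.02, beside 0.14, 0.14 and 0.10 over all measured genes. SKP1, CUL1 and RBX1 stood at 0.04 to 0.67. Between YAP forms few of the 23 listed genes passed 2-fold. In YAP-S94A against YAP-WT 1 was higher and 1 lower, beside 5.06% and 6.27% of all genes. The higher one was the CDK-activating kinase subunit MNAT1 (2.06-fold), and the lower one was SKP2. In YAP-W1W2 against YAP-WT 1 was higher, CDKN2D (2.11-fold), and 0 were lower, beside 3.91% and 5.59%. In YAP-W1W2 against YAP-S94A 2 were higher, SKP2 (3.09-fold) and CDKN2D (2.05-fold), beside 4.98%. There 1 was lower, beside 4.45%: AMBRA1 (2.03-fold), which directs D-type cyclins to degradation.

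CDKN1A is a target of p53, and 10 further targets were looked up, of which 8 were measured and BBC3 and BTG2 were not analysed here. In YAP-WT against vector 0 of the 8 were 2-fold higher or lower, in YAP-S94A 0 were higher and 3 lower, and in YAP-W1W2 1 was higher and 3 lower, with median log2 folds of −0.38, −0.46 and −0.46. Over all measured genes, 9.11% were higher and 4.95% lower in YAP-WT, 10.3% and 6.53% in YAP-S94A, and 11.4% and 8.4% in YAP-W1W2, with medians of 0.14, 0.14 and 0.10. The largest changes in YAP-WT were those of GDF15 (log2 −0.99) and the sestrin SESN1 (−0.77). In YAP-S94A they were those of the ribonucleotide reductase subunit RRM2B, 3-fold lower, and SESN1, 2.37-fold lower, with ZMAT3 at −1.01 (log2). In YAP-W1W2 they were those of GDF15, 4.13-fold lower, and RRM2B, 3.18-fold lower, with SESN1 2.88-fold lower. The target that was higher in YAP-W1W2 was TP53I3, 2.33-fold, at 14990.5 in YAP-W1W2 and 6424.8 in vector. MDM2, the p53 antagonist, stood at −0.31, −0.27 and −0.56.

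p27 and p57 are linked to cell cycle exit, and 8 genes of quiescent cells, all measured, were set beside them. None was 2-fold higher in any YAP array, while 3 were lower in YAP-WT cells, 6 in YAP-S94A cells and 6 in YAP-W1W2 cells, with median log2 folds of −0.81, −1.66 and −1.72, beside 4.95%, 6.53% and 8.4% of all measured genes lower and all-gene medians of 0.14, 0.14 and 0.10. KLF9, a transcription factor, was 2.92-fold, 5.4-fold and 7.08-fold lower than in vector. CCNG2, an unconventional cyclin that is high in resting cells, was 2.29-fold, 3.06-fold and 3.2-fold lower. BCL6, a transcriptional repressor, read 1652.8, 390.4 and 801.6 in the YAP arrays, against 2383.3 in vector. That is the order of CDKN1C over the arrays, and BCL6 was 6.1-fold lower in YAP-S94A. BTG1, an antiproliferative gene, was 4.59-fold lower in YAP-W1W2.

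**Figure D4:**
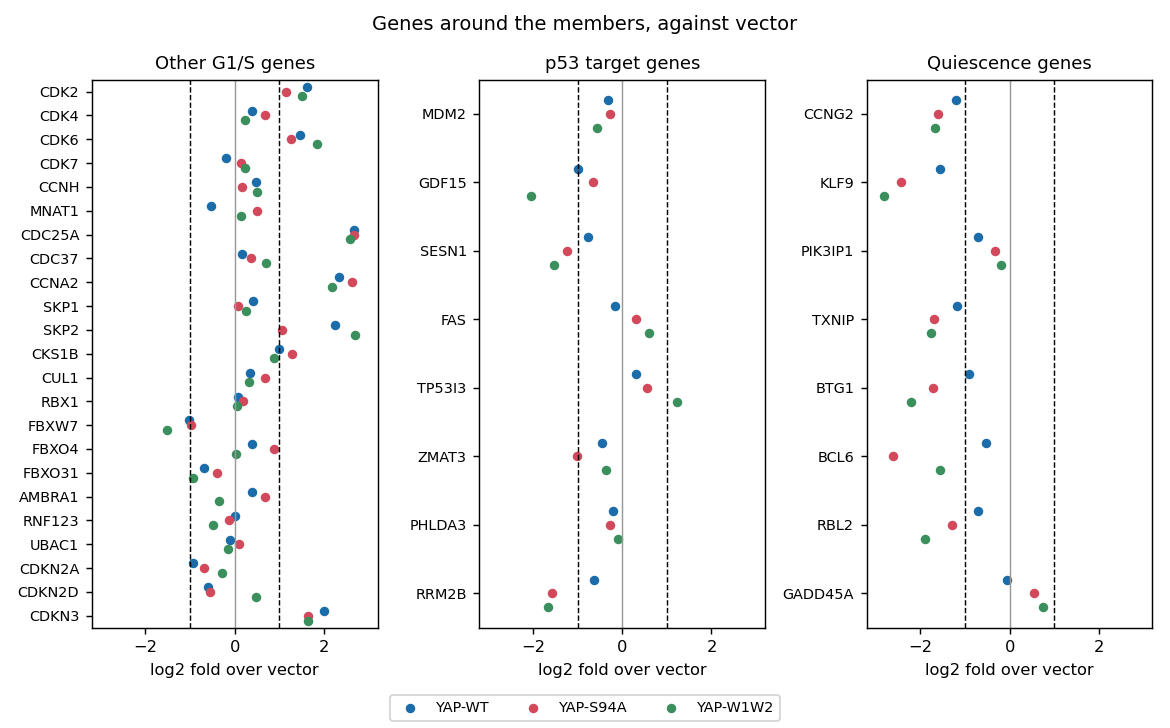
Log2 fold over vector in the YAP-WT, YAP-S94A and YAP-W1W2 cells of the measured genes of 3 lists: other genes of the G1 to S step, p53 targets and genes of quiescent cells; points are the brightest probe set and dashed lines mark 2-fold. CDC25A and CCNA2 lie past 2 on all 3 YAP arrays, and 7 of the 8 quiescence genes lie below 0 on each, with GADD45A between −0.05 and 0.74.

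The genes whose pattern over the 4 arrays lay nearest to a member were found by the distance between log2 values, each taken from the gene's own mean over the 4 arrays, among 11836 measured genes above the floor everywhere and in no list. For CCND2 they were BAX (distance 0.326), LMO2 (0.477) and CORO2A (0.506). BAX, a death effector of the BCL2 family, read 106.9 in YAP-WT cells, 489.6 in YAP-S94A cells and 219.8 in YAP-W1W2 cells, against 271.2 in vector. YAP-S94A was highest and YAP-WT lowest, as for the brightest CCND2 probe set. For CDKN1C they were VAV3 (0.237), IFI44L (0.265) and CRACDL (0.328). VAV3 read 1423.4, 371.6 and 702.1 in the YAP arrays, against 1787.9 in vector. For CCNE2 they were the kinetochore motor CENPE (0.127), UBE2T (0.136) and CDCA8 (0.137), with CENPE at 1116.8, 2025.8 and 1848.6 in the YAP arrays, against 485 in vector. The distances used only the brightest probe set of each gene, though BAX has 2 and VAV3 has 3. The second brightest CCND2 probe set was highest in vector, at 258.8, against 218.6 in YAP-S94A. The second CCNE2 probe set lacked the gap between YAP-WT and the mutants. With 4 points a close pattern is a description only.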

How the data were processed

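Biotin-labelled RNA of 4 MCF10A cultures was hybridized to Affymetrix arrays, 1 for each group. The deposited values are probe set intensities on a linear scale, made with GCOS per the submitters' processing notes; neither its version nor a scaling target was found there. The 2% trimmed means ran from 460.3 to 505.2, a ratio of 1.097, so no rescaling was applied within the 10% allowed. Symbols came from GEO's platform annotation: 41091 probe sets had 1 symbol, 1801 several and 11721 none. Intensities were floored, log2 was taken, and the brightest probe set stood for each of 19775 genes, of which 12759 were measured. Where 1 of the arrays compared was at the floor, the fold is a lower bound. Steps ran in Python 3.11.15 with numpy 2.4.6 and pandas 2.3.3 and were tested on simulated data. The members, lists and naming rule (all members, list genes past 2-fold, the 2 largest changes in the p53 and quiescence lists, the 3 nearest patterns) were chosen with earlier results of these data known. Array number limits the precision. Alternatives changed scaling, floor, filter and probe set choice.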

Additional observations from a re-analysis of the deposited data

Results flagged for a closer look

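CCND2 moved past 2-fold in opposite directions against vector in different YAP forms, at a log2 fold of −1.29 in YAP-WT and 1.25 in YAP-S94A by its brightest probe set. The difference was not tested, since each group has 1 array. By the second brightest probe set the log2 fold in YAP-S94A was −0.24.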

How the results depend on the processing

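Of 84 counts of members under 7 alternatives, 74 stayed within 1.5 times the reported count. The other floors and the lack of a filter on dim genes left every measured member's fold as reported. Counts and folds under these settings could not move, so the share that stayed says little of robustness. All counts that moved came from the settings named next. With the mean over probe sets, members at least 2-fold lower in YAP-WT than in vector fell to 0, those higher numbered 2 in YAP-S94A and 2 in YAP-W1W2, those lower in YAP-W1W2 numbered 1, and those higher in YAP-W1W2 than in YAP-S94A 0; this mean includes probe sets at the floor. Without _s_at and _x_at probe sets, the only kind CCND2 has, its calls went, leaving 0 lower in YAP-WT than in vector, 0 higher in YAP-S94A than in YAP-WT and 0 lower in YAP-W1W2 than in YAP-S94A. Median centring and quantile normalization each gave 1 member higher in YAP-W1W2 than in YAP-WT, CCND2. Of 375 member folds under an alternative or by another probe set, 2 past 2-fold turned sign, CCND2 in YAP-S94A over vector by its second brightest probe set (−0.24) and CCND3 in YAP-W1W2 over vector by its dim probe set (−0.03); the cause was not tested.

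Over all genes, counts past 2-fold against vector ranged over the alternatives from 745 to 1271 higher and 352 to 874 lower in YAP-WT (1162 and 631 as reported), from 887 to 1420 and 536 to 1097 in YAP-S94A (1312 and 833), and from 931 to 1674 and 725 to 1287 in YAP-W1W2 (1460 and 1072). Between forms they ranged from 367 to 760 and 497 to 894 in YAP-S94A against YAP-WT (646 and 800), from 194 to 680 and 419 to 818 in YAP-W1W2 against YAP-WT (499 and 713), and from 342 to 820 and 311 to 683 in YAP-W1W2 against YAP-S94A (635 and 568). No paired analysis was possible because each group has 1 array, and none was left out for that reason. Signal near the floor limits CDKN2B and the dim CCND2 and CCND3 probe sets.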
